A study of Mus musculus with 32 samples.

Results

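The 2286 intervals that the anti-PRDM9 antibody gave in testes of mice without PRDM9 are described here. They are the whole Prdm9KO list of the series, taken with no selection, and they make up 2286 of the 122081 intervals in the 9 lists used. The Prdm9KO mice carried the strain label B6;129P2-Prdm9tm1Ymat/J, a disrupted Prdm9 on a mixed B6 and 129P2 background, and the tissue was whole testis at 13 days post-partum. The ChIP was 1 library against 1 input, so no value of the list has a spread between animals. The antibody was made by the laboratory of the study, which named it anti-PRDM9 (BdM) and raised it with the Cst form of the protein. For comparison there were PRDM9 lists of the same tissue and age in B6 (C57BL/6JOlaHsd, allele Prdm9Dom2, 2601 intervals), in RJ2 (B10.MOLSGR(A)-(D17Mit58-D17Jcs11)/Bdm, allele Prdm9Cst on a background close to B6, 10121 intervals) and in Spo11KO mice (Spo11tm1M, allele Prdm9Dom2, 1070 intervals). Each of these 3 lists came from 2 ChIP libraries. DMC1 lists of B6 (14774 intervals) and RJ2 (15195 intervals) came from whole testis at 5 weeks, and H3K4me3 lists from pachytene cells of adults were split into intervals common to both strains (41014), specific to B6 (10835) and specific to RJ2 (24185).

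PRDM9 is a zinc finger protein of early meiotic germ cells. It binds DNA through its finger array, trimethylates histone H3 on lysine 4 at the sites it binds, and so marks the places where SPO11 makes meiotic double-strand breaks. DMC1 coats the single-stranded ends of these breaks. In a testis that lacks PRDM9, intervals of an anti-PRDM9 ChIP measure what the antibody, the chromatin and the mapping give without the protein, and the list therefore serves as the background control of the other PRDM9 lists. The lists hold positions only, on mouse build mm9, without a score or a read count. The height of an interval and the number of reads in it were therefore unknown. No expression values accompany the lists, and the tissue was not checked against its markers.

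Recurring sequences were the first property looked for in the Prdm9KO intervals. Words of 12 bases that were in at least 12 of the 1205 intervals on odd-numbered autosomes, and at least 5 times more frequent there than 1 kb to either side, joined into 5 sequence elements, and these elements were then counted on the other chromosomes. An interval counted as holding an element when at least 1 word of 12 bases from any stretch of that element was in it. It need not hold a whole stretch, and for elements 1, 2 and 3 only some stretches are printed. Of the 91 intervals on odd-numbered autosomes with element 1, the commonest single word was in 30. None of the letters is in capitals, since the whole stretch was searched on both strands. No repeat annotation was used, so the elements carry numbers and no family names.
Element 1, stretch a: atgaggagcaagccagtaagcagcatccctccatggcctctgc
Element 1, stretch b: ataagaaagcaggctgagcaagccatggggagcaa
Element 1, stretch c: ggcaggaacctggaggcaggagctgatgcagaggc
Element 2, stretch a: gagagacagagagacagag
Element 2, stretch b: gagacagagacagagac
Element 3: aggcttcctggaggaggtg
Element 4: tcaaactgtgagccaa
Element 5: cccattttacaga

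On the 1080 Prdm9KO intervals of the chromosomes not used to find them, 179 intervals (16.6%, 95% exact interval 14.4 to 18.9%) held at least 1 of the 5 elements. The yardstick for each element was the share of all windows of 238 bp, the median width of the Prdm9KO intervals, laid end to end over the same chromosomes. Element 1 was in 63 of the 1080 intervals (5.83%, 4.51 to 7.40%) and in 1.02% of the windows. Element 2, a run of short GA-rich units, was in 55 intervals (5.09%, 3.86 to 6.58%) and in 1.07% of the windows. Element 3 was in 33 intervals (3.06%, 2.11 to 4.26%) against 0.083% of the windows, a ratio of 36.8. Both element 4 and element 5 were rarer, with 14 intervals (1.30%) against 0.0526% of the windows and 19 intervals (1.76%) against 0.0306%. The lower bound of the interval stood above the window share for all 5 elements. The ratios depended on the length of the words searched. With words of 10 bases, a search added after the data were seen, element 3 was in 6.57% of the intervals against 1.14% of the windows, and element 1 in 16.0% against 6.95%. Element 2 was then in 10.3% against 5.18%, element 4 in 2.13% against 0.557% and element 5 in 1.94% against 0.353%. These intervals cover counting error only, and copies of a repeated sequence are not independent of each other.

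The other PRDM9 lists held these elements to different extents, although their intervals are wider and offer more room for a match. In the central 200 bp of each interval on the same chromosomes, element 1 was in 5.74% of Prdm9KO intervals (4.43 to 7.30%), in 1.40% of B6 peaks (0.832 to 2.20%), in 1.03% of RJ2 peaks (0.768 to 1.36%) and in 2.50% of Spo11KO peaks (1.37 to 4.15%). Element 3 was in 2.96% of Prdm9KO centres, in 0.682% of RJ2 centres and in 0 of 1285 B6 centres, which allows a share of up to 0.287% by the exact interval. For element 4 the central shares were 1.11% in Prdm9KO, 0.0413% in RJ2, 0 of 1285 in B6 and 0 of 561 in Spo11KO. Element 5 was the exception, as its central share in the RJ2 list (1.65%, 1.31 to 2.05%) was as high as in the Prdm9KO list (1.67%, 0.991 to 2.62%). In the B6 list it was 0.156%.

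**Figure D1:**
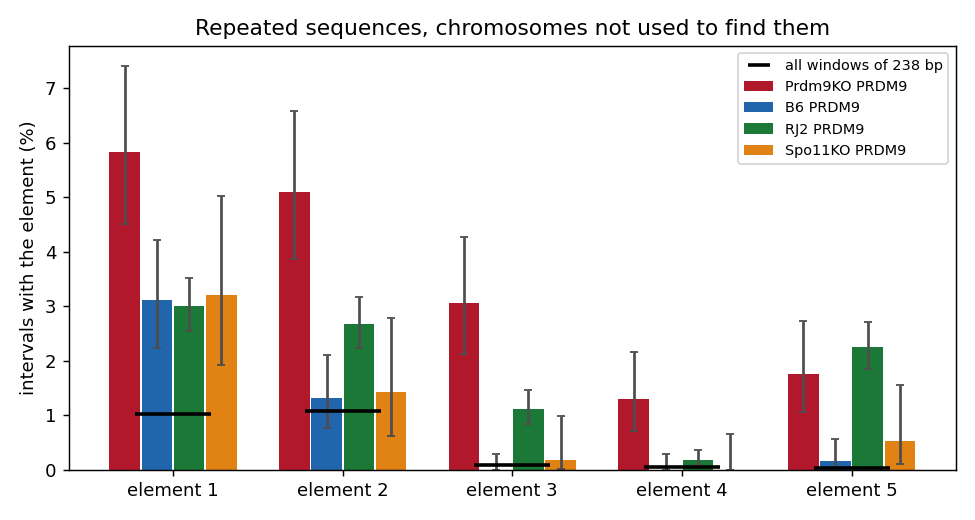
Share of the intervals of each PRDM9 list that hold each of the 5 sequence elements, in percent, on the chromosomes not used to find the elements. Bars are whole intervals with exact 95% intervals for counting error, and the black line is the share of all 238-bp windows. The Prdm9KO bar is the highest for elements 1 to 4, and the RJ2 bar is the highest for element 5.

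Within the intervals, elements 1 and 3 lay nearest to the middle by median distance. Over all chromosomes, the copy nearest to the centre was at a median distance of 12.5 bp for element 1 (154 intervals), 19 bp for element 3 (91 intervals), 27 bp for element 4 (41 intervals), 34 bp for element 5 (38 intervals) and 40 bp for element 2 (117 intervals). For element 1, 82.5% of the intervals had a copy within 50 bp of the centre, and for element 3 the share was 89.0%. It was 85.4% for element 4, 71.1% for element 5 and 55.6% for element 2. The share for copies placed evenly over the interval was not computed, so closeness to the middle was not tested. The chromosomes used to find the words are included. The nearest copy was taken in each interval, which pulls the distance down for the elements that occur several times in 1 interval.

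Elements 1 and 3 were found in different company. Of the 154 Prdm9KO intervals with element 1, 1 had its centre within 1 kb of a transcription start (0.649%, 0.0164 to 3.56%), and 11 (7.14%, 3.62 to 12.4%) overlapped an RJ2 PRDM9 peak. Of the 91 intervals with element 3, 14 (15.4%, 8.67 to 24.5%) were near a start and 29 (31.9%, 22.5 to 42.5%) overlapped an RJ2 PRDM9 peak. Element 1 also carried much of what a search for the PRDM9Dom2 word found. That word, GGTGCTGCT, is part of the motif that the B6 form of PRDM9 recognises, and it was in 32 Prdm9KO intervals (1.40%, 0.960 to 1.97%) against 0.289% of the windows. Of these 32 intervals, 22 (68.8%) held element 1, and 14.3% of the element 1 intervals held the word.

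In B6 and Spo11KO mice, which express PRDM9Dom2, the word was more frequent. In the central 200 bp it was in 31 of 2285 Prdm9KO intervals (1.36%, 0.924 to 1.92%), in 4.11% of B6 peaks (3.38 to 4.95%), in 4.21% of Spo11KO peaks (3.08 to 5.59%) and in 0.375% of RJ2 peaks (0.266 to 0.515%). The Prdm9KO share was thus below that of both Dom2 lists and above that of the Cst list, and the 95% intervals did not overlap. Over whole intervals, which are wider in the RJ2 list, the RJ2 share was 1.24% (1.04 to 1.48%), inside the Prdm9KO interval given above, whereas B6 (5.04%, 4.23 to 5.95%) and Spo11KO (5.42%, 4.14 to 6.95%) stayed higher. The core motif of CTCF, the zinc finger protein that anchors chromatin loops, was in 4 Prdm9KO intervals (0.175%, 0.0477 to 0.448%) against 0.112% of the windows, a difference that was not detectable at this number. The same motif was in 80 B6 peaks (3.08%, 2.45 to 3.81%) and in 83 RJ2 peaks (0.820%).

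The words of 8 bases that stood out most in each list were also counted in the others. For the Prdm9KO list they were CCTCCAGG, GAGCAAGC and CCTCCTCC. Read on either strand, GAGCAAGC lies inside element 1, CCTCCAGG inside elements 1 and 3, and CCTCCTCC inside element 3. On the held-out chromosomes CCTCCAGG was in 7.31% of Prdm9KO intervals and in 1.52% of the windows. CCTCCTCC was in 9.63% of Prdm9KO intervals, in 9.12% of RJ2 peaks and in 2.34% of the windows. Whole intervals were searched for these words, and the median width was 238 bp in Prdm9KO and 552 bp in RJ2. The wider RJ2 peaks offer more room for a match, so equal shares are not equal frequencies per base. The leading word of the B6 list, GCAGCACC, was in 11.6% of B6 peaks, in 2.13% of Prdm9KO intervals and in 0.693% of the windows. For GCAGCAGC these shares were 10.8%, 2.50% and 1.27%. The palindrome TCGCGAGA, also among the leading words of the B6 list, was in 98 of 1285 B6 peaks (7.63%) and in 1 of 1080 Prdm9KO intervals. It was also rare elsewhere, in 7 of 4838 RJ2 peaks, 0 of 561 Spo11KO peaks and 0.0193% of the windows. The leading word of the RJ2 list, AGGTCACA, was in 9.53% of RJ2 peaks, in 2.22% of Prdm9KO intervals and in 1.18% of the windows. For another word of the RJ2 list, ATGTGACC, the Prdm9KO share was 0.926% against 0.769% of the windows.

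The Prdm9KO intervals were next set against the other 8 lists. With an overlap of 1 bp or more, 1816 of 2286 (79.4%) overlapped none of the 8 lists, 392 overlapped 1 list, 62 overlapped 2, 14 overlapped 3 and 2 overlapped 4. As yardstick for each list, all 10749419 windows of 238 bp with known sequence on chromosomes 1 to 19, X and Y were compared with it in the same way. The share of windows that overlap none of the 8 lists was not computed, so 79.4% does not show that the intervals avoid the lists. List by list, the Prdm9KO share was at or above the window share, as given below. The authors describe the removal, from the other PRDM9 sets, of peaks that met a Prdm9KO interval. The deposited RJ2 list still held 252 such peaks, the Spo11KO list 13 and the B6 list 2, so that the step had not been applied to all of them in the form of a 1-bp overlap with these 2286 intervals. The RJ2, Spo11KO and B6 lists have the numbers of peaks that the paper reports after filtering. For B6 and RJ2, the paper also describes removing the peaks shared by both strains. Why peaks that met a Prdm9KO interval remained in the lists could not be told. Differences between the lists in their overlap with the Prdm9KO intervals may be differences in filtering and are no measurement of specificity.

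The overlap with B6 PRDM9 peaks was 2 intervals (0.0875%, 0.0106 to 0.316%), and 0.0771% of the windows overlapped the same list. With Spo11KO PRDM9 peaks, 13 intervals overlapped (0.569%, 0.303 to 0.970%) against 0.0311% of the windows. With RJ2 PRDM9 peaks, 256 intervals overlapped (11.2%, 9.93 to 12.6%) against 0.341% of the windows, a ratio of 32.8. Strain, allele and filtering of the B6 and RJ2 lists cannot be told apart in these shares. The RJ2 overlaps were deep, as 11.1% of the Prdm9KO intervals had at least 50% of their length inside an RJ2 peak. The median width was 631 bp for the RJ2 peaks that were met and 550 bp for those that were not. Seen from the other side, 2.49% of RJ2 peaks, 1.21% of Spo11KO peaks and 0.0769% of B6 peaks met a Prdm9KO interval.

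**Figure D2:**
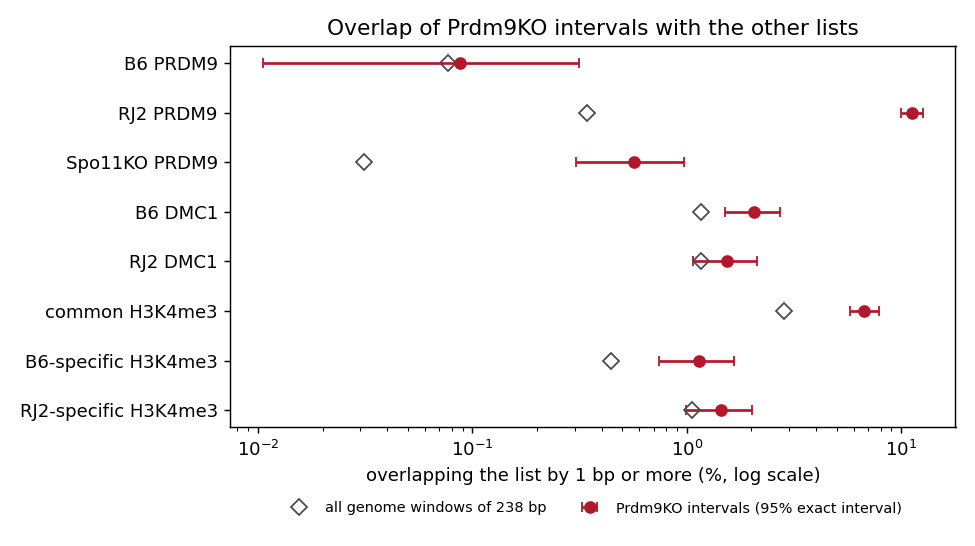
Share of Prdm9KO intervals that overlap each of the other 8 lists by 1 bp or more (red points, with exact 95% intervals for counting error), on a log axis in percent, beside the share of all 238-bp windows of the genome that overlap the same list (open diamonds). The RJ2 PRDM9 share is 11.2% against 0.341% of the windows, and the B6 PRDM9 share is 0.0875% against 0.0771%. The paper describes removing peaks that met Prdm9KO intervals from the other PRDM9 sets, so a low share can follow from that step.

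The DMC1 lists are maps of breaks in mice that have PRDM9. Without Prdm9, the paper states, breaks are still made in mice, but elsewhere and mainly at promoters. These lists thus do not map the breaks of the Prdm9KO testis. B6 DMC1 intervals, which extend over a median of 1752 bp, overlapped 47 Prdm9KO intervals (2.06%, 1.51 to 2.72%) against 1.17% of the windows. RJ2 DMC1 intervals overlapped 35 (1.53%, 1.07 to 2.12%) against 1.16%, and here the window share lay inside the interval. With the central 400 bp of the DMC1 intervals alone, 0.612% of the Prdm9KO intervals (0.335 to 1.03%) overlapped B6 DMC1, against 0.369% of the windows, and 0.831% (0.501 to 1.29%) overlapped RJ2 DMC1, against 0.379%, so that which of the 2 window shares fell inside the interval depended on how much of the DMC1 interval was used. The distance from a Prdm9KO centre to the nearest B6 DMC1 centre had a median of 58.0 kb, and for the windows it was 63.1 kb. For RJ2 DMC1 the medians were 57.8 kb and 62.6 kb. Of the 77 Prdm9KO intervals that overlapped a DMC1 list, 5 overlapped both lists, 14 overlapped RJ2 DMC1 together with an RJ2 PRDM9 peak, and 16 overlapped B6 DMC1 together with B6-specific H3K4me3.

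Of the H3K4me3 lists, the one common to both strains, which covers the most of the genome, was met by the largest number of intervals. The 154 Prdm9KO intervals at common H3K4me3 were 6.74% of the list (5.74 to 7.84%), against 2.84% of the windows. B6-specific H3K4me3 was overlapped by 26 intervals (1.14%, 0.744 to 1.66%) against 0.441%, and RJ2-specific H3K4me3 by 33 (1.44%, 0.996 to 2.02%) against 1.06%. The last of these window shares lay inside the interval. Relative to the windows, the ratios for common H3K4me3 (2.37, 2.02 to 2.76) and for B6-specific H3K4me3 (2.58, 1.69 to 3.77) overlapped within counting error. When at least 50% of the interval had to be covered, the share at B6-specific H3K4me3 was 0.700% against 0.344% of the windows. Of the 154 intervals at common H3K4me3, 103 (66.9%) had their centre within 1 kb of a transcription start, 42 (27.3%) had a CpG-rich centre and 31 (20.1%) also overlapped an RJ2 PRDM9 peak. The median width of the 154 was 278.5 bp, and that of the remaining intervals was 236 bp. Closeness to starts and CpG content were not computed for the common H3K4me3 list as a whole. The shares of 66.9% and 27.3% are thus not shown to be particular to the Prdm9KO intervals.

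The 256 intervals shared with RJ2 PRDM9 peaks were set beside the other 2029. Their median GC content was 51.5% against 47.0% in the central 200 bp. Of the 256, 52 (20.3%, 15.6 to 25.8%) had their centre within 1 kb of a start, against 9.17% (7.95 to 10.5%) of the others. Element 3 was in 29 (11.3%, 7.72 to 15.9%), against 3.06% (2.35 to 3.90%). For element 1 the shares were 4.30% (2.16 to 7.56%) and 7.05% (5.97 to 8.25%), which overlap within counting error. The PRDM9Dom2 word was in 1 of the 256 (0.391%, 0.00989 to 2.16%) and in 1.53% (1.04 to 2.16%) of the others, which overlap within counting error. GC content, closeness to starts and element 3 moved together with the RJ2 overlap, and their part in it was not tested.

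The intervals that met B6 or Spo11KO peaks could be looked at one by one. The first overlap with a B6 peak was chr4:16090725-16091122, 398 bp with a GC content of 73.0% in the centre, which held the start of Ripk2, a kinase of innate immune signalling. It shared 367 bp with a B6 peak of 993 bp. The second was chr12:59398405-59398613, an intergenic interval of 209 bp that shared 39 bp with the edge of a B6 peak of 426 bp and also met B6 DMC1 and B6-specific H3K4me3. Their sequences are printed on the plus strand with the bases inside the B6 peak in capitals, for the first the central 300 bases, all of which lie in the peak.
chr4:16090774-16091073: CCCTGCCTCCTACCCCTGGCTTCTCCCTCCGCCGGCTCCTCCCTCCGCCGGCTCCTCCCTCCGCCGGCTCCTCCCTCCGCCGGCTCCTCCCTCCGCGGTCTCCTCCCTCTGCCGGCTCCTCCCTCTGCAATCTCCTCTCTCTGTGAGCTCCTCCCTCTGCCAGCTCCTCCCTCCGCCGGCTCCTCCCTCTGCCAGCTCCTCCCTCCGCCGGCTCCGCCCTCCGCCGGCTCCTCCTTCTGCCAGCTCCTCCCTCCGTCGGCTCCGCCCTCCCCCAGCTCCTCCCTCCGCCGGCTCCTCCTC
chr12:59398405-59398613: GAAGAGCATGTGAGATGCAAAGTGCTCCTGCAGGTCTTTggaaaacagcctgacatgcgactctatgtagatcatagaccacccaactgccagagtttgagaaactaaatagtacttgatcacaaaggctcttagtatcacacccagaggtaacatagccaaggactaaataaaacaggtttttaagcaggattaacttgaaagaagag

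In the Ripk2 interval a short unit rich in C and T is repeated with variations. Among the 13 intervals that overlapped Spo11KO peaks, which were between 191 and 551 bp wide, 4 held element 1 and 1 held element 5. Over all Prdm9KO intervals the shares were 6.74% for element 1 and 1.66% for element 5. None of the 13 lay within 1 kb of a transcription start, and none held the PRDM9Dom2 word. Over all Prdm9KO intervals these shares were 10.4% and 1.40%, and 0 of 13 allows up to 24.7% by the exact interval. These counts of 0 thus do not set the 13 apart. Of the 13, 5 also overlapped an RJ2 PRDM9 peak, against 11.2% of all Prdm9KO intervals, and 1 met B6 DMC1 with B6-specific H3K4me3. The widest was chr2:65005243-65005793 in an intron of Cobll1, and it was also among the 3 longest overlaps with an RJ2 PRDM9 peak. The next in width was chr17:42659391-42659719, an intergenic interval with element 1. The central 300 bases of both follow, with the words of the elements in capitals.
chr2:65005368-65005667: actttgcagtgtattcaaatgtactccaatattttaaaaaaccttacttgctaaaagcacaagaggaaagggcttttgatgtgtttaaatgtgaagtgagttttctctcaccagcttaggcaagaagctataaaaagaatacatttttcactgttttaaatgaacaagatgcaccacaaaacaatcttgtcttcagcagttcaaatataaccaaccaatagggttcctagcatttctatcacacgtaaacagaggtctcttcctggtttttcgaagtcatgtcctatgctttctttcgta
chr17:42659405-42659704: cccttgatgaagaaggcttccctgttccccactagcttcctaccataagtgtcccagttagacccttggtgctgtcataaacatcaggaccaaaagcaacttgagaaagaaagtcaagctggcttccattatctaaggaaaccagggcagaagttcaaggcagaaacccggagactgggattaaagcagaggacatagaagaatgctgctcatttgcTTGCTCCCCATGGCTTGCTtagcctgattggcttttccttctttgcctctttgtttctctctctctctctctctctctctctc

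The longest overlap with an RJ2 PRDM9 peak was chr11:118311261-118311929, 669 bp in an intron of Gm11747. Its central 300 bases, which hold no word of the 5 elements, consist of a longer unit repeated with variations.
chr11:118311445-118311744: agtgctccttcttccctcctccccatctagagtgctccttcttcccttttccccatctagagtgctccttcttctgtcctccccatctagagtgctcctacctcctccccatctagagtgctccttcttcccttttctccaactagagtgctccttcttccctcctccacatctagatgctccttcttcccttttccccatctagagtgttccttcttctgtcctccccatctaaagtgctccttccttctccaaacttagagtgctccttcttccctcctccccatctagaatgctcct

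The 2 intervals that met the largest number of lists, 4 each, were chr2:178947287-178947521, which is intergenic, and chr1:69095605-69095825 in an intron of Erbb4, a receptor tyrosine kinase. Both overlapped an RJ2 PRDM9 peak and the DMC1 intervals of both strains. The first also met RJ2-specific H3K4me3 and the second common H3K4me3. In the sequences the bases inside the RJ2 PRDM9 peak are in capitals, 180 of 235 in the first and all 221 in the second.
chr2:178947287-178947521: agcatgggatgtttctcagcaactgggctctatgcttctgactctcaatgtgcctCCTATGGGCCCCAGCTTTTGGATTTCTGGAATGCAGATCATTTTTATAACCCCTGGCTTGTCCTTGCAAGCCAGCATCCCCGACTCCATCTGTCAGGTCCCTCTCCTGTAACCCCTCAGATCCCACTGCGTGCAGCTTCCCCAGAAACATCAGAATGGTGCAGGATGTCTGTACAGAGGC
chr1:69095605-69095825: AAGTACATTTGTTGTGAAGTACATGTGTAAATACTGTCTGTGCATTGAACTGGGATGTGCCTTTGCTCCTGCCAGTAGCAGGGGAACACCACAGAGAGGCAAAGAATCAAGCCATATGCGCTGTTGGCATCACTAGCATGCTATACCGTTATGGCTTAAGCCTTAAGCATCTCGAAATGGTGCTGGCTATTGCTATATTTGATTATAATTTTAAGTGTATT

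The Prdm9KO intervals were narrow. Their width had a floor of 191 bp, at which 214 intervals (9.36%) stood, a median of 238 bp and a 95th percentile of 421 bp. The narrowest peaks of the other PRDM9 lists were 230 bp in B6, 219 bp in RJ2 and 238 bp in Spo11KO, so that the median Prdm9KO interval was about as wide as the narrowest peaks of these lists. Only 1.79% of Prdm9KO intervals exceeded 500 bp, whereas 44.6% of B6, 60.3% of RJ2 and 41.3% of Spo11KO peaks did. The Prdm9KO library was read from single ends, in shorter reads, and called alone with a relaxed threshold. The other PRDM9 libraries were read from paired ends and called with replicates. Genotype and these steps cannot be told apart in the widths.

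**Figure D3:**
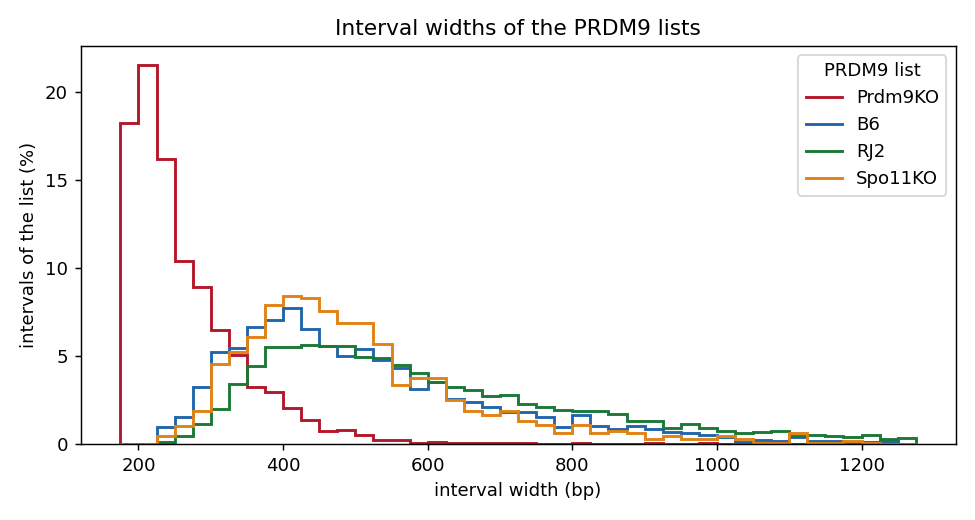
Widths of the intervals in the 4 PRDM9 lists, as the percentage of each list in bins of 25 bp. The Prdm9KO list (red) starts at 191 bp and has its median at 238 bp, to the left of the other 3 lists. A few peaks beyond the axis are not drawn.

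The widest Prdm9KO interval was chr2:173405978-173407221 (1244 bp, in an exon of the pseudogene Ppp4r1l-ps), and the third in width was chr15:10480371-10481363 (993 bp, in an intron of Ttc23l). Both overlapped none of the 8 lists. The central 300 bases of the widest are shown in lower case, with no part marked.
chr2:173406450-173406749: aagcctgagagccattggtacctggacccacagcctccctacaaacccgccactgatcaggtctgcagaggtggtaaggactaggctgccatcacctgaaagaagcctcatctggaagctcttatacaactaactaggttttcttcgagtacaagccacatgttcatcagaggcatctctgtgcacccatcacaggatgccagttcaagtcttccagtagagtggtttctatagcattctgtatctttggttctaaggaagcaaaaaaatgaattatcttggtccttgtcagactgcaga

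Tandem repeats of at least 30 bases, with a unit of 1 to 6 bases and no mismatch, were less common in Prdm9KO intervals than in the genome. They were found in 43 intervals (1.88%, 1.37 to 2.53%) and in 5.31% of the windows. The share was 2.42% in the B6 list (1.87 to 3.09%), 4.11% in the Spo11KO list (3.0 to 5.48%) and 5.66% in the RJ2 list (5.22 to 6.13%). Whole intervals were searched, and the median width was 473 bp in B6, 470.5 bp in Spo11KO and 552 bp in RJ2. The windows have the median Prdm9KO width of 238 bp, so for the other 3 lists width and repeat content cannot be told apart. The files were made from uniquely mapped reads, and how much of each repeat class such reads can reach was not measured.

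Along the genome the Prdm9KO intervals were mostly solitary, with a median distance of 268.9 kb to the nearest other one. A neighbour within 10 kb was found for 167 intervals (7.31%, 6.27 to 8.45%). In the B6 list, which is of similar size, this share was 2.69% (2.10 to 3.39%). Within 1 kb the contrast was larger, with 76 Prdm9KO intervals (3.32%) against 6 B6 peaks (0.231%), but broad signal split into several narrow intervals counts as neighbours here, and when intervals less than 500 bp apart were joined the share within 10 kb was 5.05%. The 167 intervals formed 79 chains, 74 of which had 2 members, 4 had 3, and 1 had 7.

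The chain of 7 lay at the distal end of chromosome X, within Mid1, between chrX:166428162 and chrX:166437409. Mid1 encodes a ubiquitin ligase and, in C57BL/6 mice, extends into the pseudoautosomal region, the stretch that X shares with Y and in which the sex chromosomes recombine in males. The 7 intervals covered a span of 9.25 kb, were between 217 and 726 bp wide, and had a GC content between 49.5% and 73.0% in their centres. Of these, 2 overlapped the DMC1 intervals of both B6 and RJ2, and none overlapped a PRDM9 list or an H3K4me3 list. The central 300 bases of the 2 widest members, with CpG dinucleotides in capitals, show how rich in CpG and internally repeated they are.
chrX:166435305-166435604: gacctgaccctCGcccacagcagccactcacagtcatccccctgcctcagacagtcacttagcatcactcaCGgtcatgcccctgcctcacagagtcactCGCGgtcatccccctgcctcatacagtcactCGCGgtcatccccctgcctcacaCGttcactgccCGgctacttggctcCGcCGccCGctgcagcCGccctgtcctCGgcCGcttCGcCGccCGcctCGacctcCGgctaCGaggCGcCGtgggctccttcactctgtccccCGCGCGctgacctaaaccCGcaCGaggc
chrX:166431892-166432191: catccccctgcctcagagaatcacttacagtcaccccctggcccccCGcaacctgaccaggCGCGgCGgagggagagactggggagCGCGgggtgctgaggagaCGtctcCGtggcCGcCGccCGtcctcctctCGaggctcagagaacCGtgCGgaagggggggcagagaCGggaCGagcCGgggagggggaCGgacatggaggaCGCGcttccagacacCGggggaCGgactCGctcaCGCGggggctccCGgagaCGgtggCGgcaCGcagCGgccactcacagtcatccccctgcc

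The remainder of chromosome X was almost empty. It held 2 further intervals, chrX:91234079-91234379 and chrX:154050994-154051273, which were 71 and 81 bp from the starts of Gm15165 and Gm15173 and overlapped RJ2-specific and B6-specific H3K4me3. In all, 9 intervals lay on X, or 0.0540 per Mb against 0.921 per Mb on the autosomes, a ratio of 0.0587 (0.0268 to 0.112). Males carry 1 copy of X, and X holds 6.34% of the known bases of autosomes and X but 0.394% of the Prdm9KO intervals (0.180 to 0.746%). The ratio of X to autosomes was 0.303 in the B6 list, 0.235 in the RJ2 list and 0.487 in the Spo11KO list, with 2.0% (1.5 to 2.61%), 1.56% (1.33 to 1.82%) and 3.18% (2.21 to 4.41%) of the peaks on X. No interval of any PRDM9 list lay on Y, of whose 15.9 Mb only 2.70 Mb are known sequence in this build. With the chain counted once, the Prdm9KO ratio was 0.0203.

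**Figure D4:**
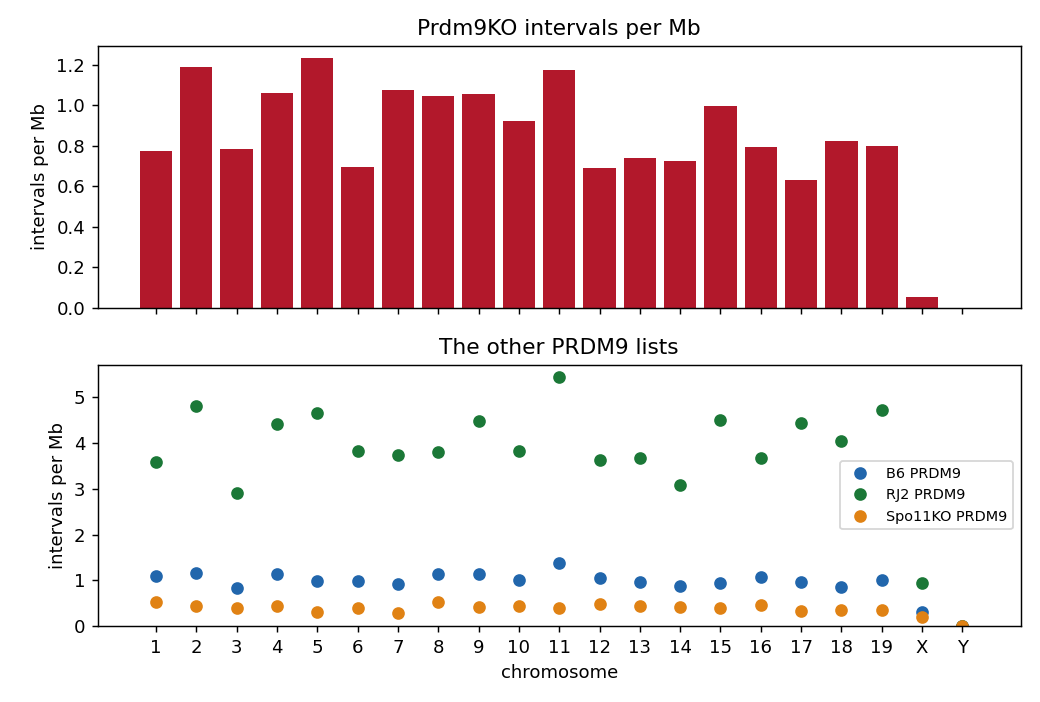
Intervals per Mb of chromosome length in the Prdm9KO list (upper bars) and in the other 3 PRDM9 lists (lower points). Prdm9KO intervals range from 0.630 to 1.23 per Mb over the autosomes, drop to 0.0540 on X and are at 0 on Y. Only 2.70 of the 15.9 Mb of Y are known sequence.

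Among the autosomes, chromosome 5 held the most intervals per Mb (1.23) and chromosome 17, which carries Prdm9, the fewest (0.630). Prdm9 itself, at chr17:15680043-15701318 on the minus strand, had no Prdm9KO interval, and the nearest, chr17:15446923-15447113, lay 232929 bp away. That interval was intergenic and overlapped RJ2 DMC1 and RJ2-specific H3K4me3. Windows of 10 Mb on the autosomes held a median of 8 intervals (quartiles 5 and 12, n = 246), and none of them was empty. The fullest was chr5:120000001-130000000 with 43, and the next held 28. That window had a GC content of 47.4% against a median of 41.7%, and 183 genes with a start against a median of 120. It also held 17 B6, 107 RJ2 and 3 Spo11KO peaks.

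The number of Prdm9KO intervals in a window rose with its GC content, with Spearman's rho of 0.60 over the 246 windows, which share 1 library and are neighbours in the genome. In 5 groups of windows ordered by GC content the mean was 5.92, 6.29, 8.51, 9.84 and 15.0 intervals. B6 PRDM9 peaks followed GC content less closely (rho of 0.49), RJ2 peaks more closely (0.82) and Spo11KO peaks hardly (0.02). Between the Prdm9KO list and the other lists, rho was 0.64 with RJ2 PRDM9, 0.46 with B6 PRDM9, 0.15 with Spo11KO PRDM9, 0.56 with common H3K4me3, 0.35 with B6 DMC1 and 0.48 with RJ2 DMC1. GC content moved with the Prdm9KO, B6 and RJ2 numbers, and its part in these values was not tested.

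**Figure D5:**
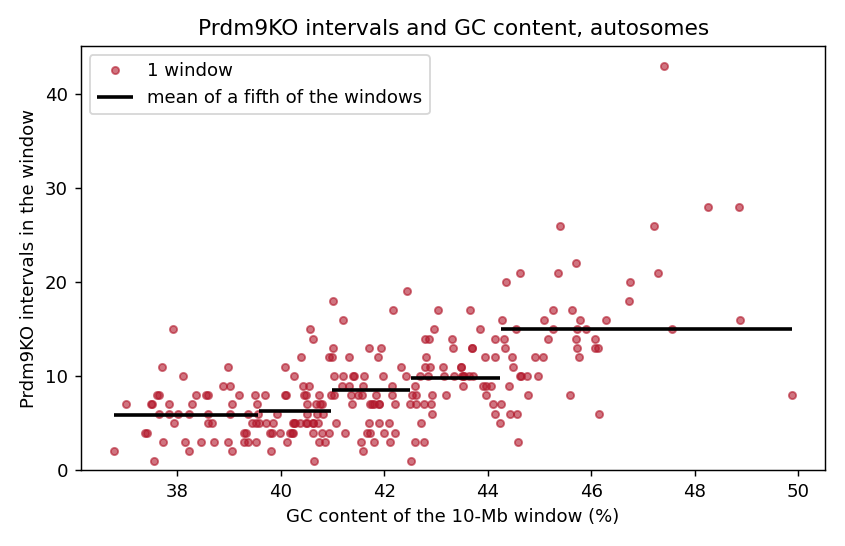
Number of Prdm9KO intervals in each of the 246 autosomal windows of 10 Mb against the GC content of the window in percent, with the mean of each of 5 groups of windows as black lines. The mean rises from 5.92 to 15.0, and 1 window stands apart with 43 intervals.

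At the scale of the intervals, the central 200 bp had a median GC content of 47.5% (quartiles 42.5 and 52.0%), against 41.0% in the windows. The medians were 47.5% in B6, 46.5% in RJ2 and 43.5% in Spo11KO. The CpG ratio is the observed number of CpG dinucleotides over that expected from the C and G content. Its median was 0.136 in Prdm9KO intervals, 0.205 in B6, 0.163 in RJ2 and 0.128 in Spo11KO peaks. Centres were called CpG-rich when their GC content reached 55% and their CpG ratio 0.65, which held for 85 Prdm9KO intervals (3.72%, 2.98 to 4.58%), 0.528% of the windows, 332 B6 peaks (12.8%, 11.5 to 14.1%), 195 RJ2 peaks (1.93%, 1.67 to 2.21%) and 0 of 1070 Spo11KO peaks.

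Most CpG-rich intervals lay at promoters. Within 1 kb of an annotated transcription start lay the centres of 238 Prdm9KO intervals (10.4%, 9.19 to 11.7%) and of 4.15% of the windows. The share was 20.4% in B6 (18.8 to 22.0%), 9.82% in RJ2 (9.25 to 10.4%) and 3.27% in Spo11KO (2.29 to 4.52%). Of the 85 CpG-rich intervals, 75 were near a start. Away from starts, 10 of 2047 intervals (0.489%) were CpG-rich. Exons held the centres of 99 intervals (4.33%, 3.54 to 5.25%) against 3.4% of the windows, and genes held 973 (42.6%, 40.5 to 44.6%) against 41.2%, so that the share inside genes did not differ detectably from the windows.

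An annotated start lay inside an interval for 62 genes in 61 intervals, 58 of them protein-coding, and 33 of these genes were in an interval that also overlapped common H3K4me3. Ordered by the width of the interval, the first was Nfatc2, a transcription factor of calcium signalling (chr2:168426980-168427488, 509 bp, no other list). It was followed by Ahdc1 (503 bp, common H3K4me3) and by Tmcc2 and Tspan4 (496 and 482 bp, no other list). Sirt6, a deacetylase with a role in DNA repair, had an interval of 470 bp at common H3K4me3. Pde4a, a phosphodiesterase of cyclic AMP, had one of 425 bp with no other list, and Ano6, a scramblase of membrane lipids, one of 395 bp at an RJ2 PRDM9 peak. Mcph1, a regulator of chromosome condensation, had an interval of 365 bp and Slc25a20, the carnitine carrier of mitochondria, one of 375 bp, both at common H3K4me3. The other members of the first 20 were A230050P20Rik, Fbxw4, Sh3bgrl2, Fam78a, Ripk2, Btf3l4, Ccdc71, 1500002O20Rik, Nubp1, Iqce and Fnip2, with intervals between 341 and 466 bp.

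Genes of meiosis and of testis cells were looked up by name. A Prdm9KO interval lay within 1 kb of a start of 270 of 37273 annotated genes (0.724%), and of 1.04% of protein-coding genes. Among 24 annotated genes of meiotic breaks and recombination it was 1, Spo11, which encodes the protein that makes the breaks. The interval at Spo11, chr2:172805540-172805748, was 209 bp wide with its centre 294 bp from the start, in an intron, and it overlapped an RJ2 PRDM9 peak and common H3K4me3. There was no such interval for 11 genes of the chromosome axis and synaptonemal complex, 11 of CTCF and cohesin, 15 of the PRDM family, 10 of germ cells, 13 of Sertoli and Leydig cells and 70 replication-dependent histone genes. At a share over all genes this low, counts of 0 and 1 in lists of this size do not set the lists apart from other genes.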

How the data were processed

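ChIP-seq reads were mapped by the authors to the mouse build mm9, and the submitters' processing notes name BWA, Bowtie, Bowtie2, CASAVA and MACS2. The deposited lists are positions of called intervals, with no counts or scores, and the replicates were pooled. For Prdm9KO mice 1 library was called against 1 input, single-end, with a relaxed p-value. Depth could not be read from the lists, and the H3K36me3 libraries were not analysed here.

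All 2286 Prdm9KO intervals were used, 2285 of them on chromosomes 1 to 19 and X. Overlap means 1 bp or more. Shares carry 95% intervals by the exact Clopper-Pearson method, for counting error alone, and no test was made, since 1 library gives no spread. The yardstick was all 238-bp windows with known sequence, laid end to end on NCBIM37 (the assembly of mm9), with gene starts from GENCODE M1. Motifs were searched on both strands. The search for words of 12 bases was added after the lists were seen. Named intervals were the 3 widest (the second is not reported here), those meeting B6 or Spo11KO peaks, the 3 longest RJ2 overlaps, those meeting most lists, the longest chain, the fullest window and the one nearest Prdm9. Named genes had a start inside an interval (the 20 widest) or were in the gene lists. Members and gene lists were chosen with earlier results of these data known. Python 3.11.15, numpy and scipy were used, and functions were checked on simulated data. Alternatives changed the overlap rule, the intervals kept, the distances and the part of the interval searched.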

Additional observations from a re-analysis of the deposited data

How the results depend on the processing

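Of 63 alternative values for 25 results, 46 stayed within the counting interval or the spread of the main value, 17 moved and none reversed. With intervals at or above the median width alone, the overlap was 0.260% with Spo11KO PRDM9, 1.04% with RJ2 DMC1 and 8.74% with common H3K4me3. With the central 400 bp of DMC1 intervals it was 0.612% in B6 and 0.831% in RJ2. With 50% of the interval covered, and likewise with its centre inside, the overlap with B6-specific H3K4me3 was 0.700%. The share with a neighbour was 3.32% within 1 kb, 28.0% within 100 kb, and 5.05% after joining intervals less than 500 bp apart. With chains within 10 kb counted once, the ratio of X to autosomes was 0.0203. The share near a start was 7.18% at 500 bp and 22.5% at 5 kb, against 2.22% and 16.5% of the windows. In the central 200 bp, the CTCF motif was in 0.0438% of the intervals. With words of 10 bases, an alternative chosen after seeing the data, elements 1, 2 and 3 were in 16.0%, 10.3% and 6.57% of the held-out intervals, against 6.95%, 5.18% and 1.14% of the windows, so that the ratios to the windows depended on the word length. The repeat-masked share was not run, since the genome used marks no repeats. No paired analysis was possible because the lists hold no value per replicate. With 1 ChIP library, neither the reproducibility of an interval nor its depth could be read from the list, and shares resting on a few intervals, such as those with B6 peaks or the CTCF motif, have the widest intervals relative to their size.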
